A study of Mus musculus with 6 samples.

Results

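The Schlafen genes are a mammalian family whose mouse members sit side by side on chromosome 11. In the FPKM values deposited for C2C12 cells, identifiers of transcripts were matched to gene symbols and summed by gene, and the 7 Schlafen genes with a listed transcript were kept of 11835 genes in all. These are Slfn1, Slfn2, Slfn3, Slfn4, Slfn5, Slfn8 and Slfn9, with 14 listed transcripts between them. The annotation (GENCODE, build GRCm38) holds 11 genes with a Schlafen symbol, of which Slfn14, Slfnl1, the pseudogene Slfn10-ps and the antisense RNA Slfn5os were without a listed transcript. FPKM corrects fragment numbers for transcript length and library size, so levels of different genes can be set side by side.

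C2C12 is a mouse myoblast line that fuses into myotubes in medium low in serum. The study asked what loss of calponin 3 (CNN3), an actin-binding protein, does to such cells, and sequenced mRNA of 3 samples that received NC siRNA (siNC) and 3 that received CNN3 siRNA (siCNN3). All 6 were grown in DMEM with fetal bovine serum and switched to DMEM with horse serum. The labels call them mouse myotube, the study calls them differentiating myoblasts, and the labels give neither a harvest time nor an siRNA sequence. The study's methods state a harvest time for differentiation experiments in general, with a second transfection before it, and list several CNN3 siRNAs without naming the one behind the sequenced samples. Nothing states that the 3 samples of a group were separate cultures, so p-values below measure only the spread between these samples. Both groups carry a transfected siRNA, and no untransfected sample was analysed here.

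Schlafen proteins share an N-terminal core that binds, and in several members cuts, tRNA and rRNA, and the long members add a helicase-like domain. The family was first described in mouse thymocytes and T cells, where some members restrain growth, and many Schlafen genes are switched on by type I interferon through a complex that holds STAT2 and IRF9. Muscle cells are not among the cells in which the family is best known.

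Coding length separates the members. Slfn1 has 337 codons and Slfn2 has 378, and these are the short members. Slfn3 (640 codons in its longer listed transcript) and Slfn4 (602) are intermediate, and Slfn5 (884), Slfn8 (910) and Slfn9 (910) are the long, helicase-like members. The cluster ran over 263.8 kb of chromosome 11 (GRCm38), from the start of Slfn5 at 82951349 to the end of Slfn3 at 83215154. Slfn5 (82951349 to 82964840), Slfn2 (83065112 to 83070678), Slfn1 (83116849 to 83122670), Slfn4 (83175186 to 83190216) and Slfn3 (83191330 to 83215154) lie on the forward strand. Slfn9 (82978390 to 82991830) and Slfn8 (83002158 to 83020810) lie on the reverse strand. Coding sequences were 92.7% identical over the aligned bases for Slfn3 and Slfn4 and also 92.7% for Slfn8 and Slfn9, compared with 71.9% for Slfn1 and Slfn2.

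Since interferon-driven genes often carry an interferon-stimulated response element (ISRE) near their start, the stretch from 250 bases before to 50 bases after each start was read from RefSeq promoters of GRCm38.p6, in which all 7 members were matched. Both strands were searched for the ISRE core, GAAA followed by any 2 bases and GAAA, which reads TTTC, any 2 bases and TTTC on the other strand. It was present in the promoters of Slfn5, Slfn9 and Slfn8 and not in those of Slfn1, Slfn2, Slfn3 and Slfn4. Among all 27025 genes with a promoter, 1079 (3.99%) held it. The members with a match are printed 5′ to 3′ on the gene's strand, with the core in capitals, followed by the promoters of Slfn2 and Slfn4, because these were the members that passed the test below and they held no match. The windows are chr11:82951852-82952151 (Slfn5, forward strand), chr11:82991781-82992080 (Slfn9, reverse), chr11:83020761-83021060 (Slfn8, reverse), chr11:83064862-83065161 (Slfn2, forward) and chr11:83174936-83175235 (Slfn4, forward).
Slfn5: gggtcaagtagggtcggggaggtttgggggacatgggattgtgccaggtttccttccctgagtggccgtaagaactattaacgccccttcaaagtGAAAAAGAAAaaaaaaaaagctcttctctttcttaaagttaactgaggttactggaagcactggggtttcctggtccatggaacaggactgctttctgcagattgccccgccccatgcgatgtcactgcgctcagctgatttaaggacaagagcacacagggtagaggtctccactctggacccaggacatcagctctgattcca
Slfn9: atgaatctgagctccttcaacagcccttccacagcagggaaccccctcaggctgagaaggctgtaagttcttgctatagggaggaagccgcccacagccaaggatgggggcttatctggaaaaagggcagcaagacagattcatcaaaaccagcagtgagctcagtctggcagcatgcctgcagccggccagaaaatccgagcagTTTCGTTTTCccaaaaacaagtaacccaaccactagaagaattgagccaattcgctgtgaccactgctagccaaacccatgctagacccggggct
Slfn8: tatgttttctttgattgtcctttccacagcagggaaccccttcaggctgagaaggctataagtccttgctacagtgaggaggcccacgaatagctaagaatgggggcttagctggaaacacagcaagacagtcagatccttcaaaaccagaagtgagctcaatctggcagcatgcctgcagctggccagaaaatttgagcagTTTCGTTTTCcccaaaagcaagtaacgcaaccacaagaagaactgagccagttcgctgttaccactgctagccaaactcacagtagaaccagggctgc
Slfn2: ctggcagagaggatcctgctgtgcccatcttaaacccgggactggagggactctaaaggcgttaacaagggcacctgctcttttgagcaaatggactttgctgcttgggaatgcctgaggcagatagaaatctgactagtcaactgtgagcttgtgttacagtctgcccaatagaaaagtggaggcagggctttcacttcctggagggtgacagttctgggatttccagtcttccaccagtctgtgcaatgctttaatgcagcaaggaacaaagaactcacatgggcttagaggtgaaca
Slfn4: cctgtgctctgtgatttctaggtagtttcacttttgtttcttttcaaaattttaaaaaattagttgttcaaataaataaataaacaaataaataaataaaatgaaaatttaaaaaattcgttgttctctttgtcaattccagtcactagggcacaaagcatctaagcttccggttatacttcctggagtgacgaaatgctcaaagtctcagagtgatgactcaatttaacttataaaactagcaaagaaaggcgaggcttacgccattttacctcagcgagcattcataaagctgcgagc
Counted from the annotated start, the core began at position -155 in Slfn5, -45 in Slfn9 and -48 in Slfn8. In Slfn9 and Slfn8 it had the same letters. A second annotated start of Slfn8 had the same match in its window. The gamma-activated site motif TTCNNNGAA, which reads the same on both strands, was in no window of a member, while 9.55% of all genes with a promoter had it. A match describes these letters only, and its absence says only that the letters are not in this window.

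The 11593 genes averaging 0.5 FPKM or more across the libraries were tested with limma on log2(FPKM + 1), a gene being called higher or lower at a Benjamini-Hochberg adjusted p below 0.05 over all of them. Differences are siCNN3 minus siNC on that scale, where changes of genes near 0 FPKM come out too small. The number of reads is not known and no counting error can be given, and an exact 0 may be a failed estimate, because 235 transcripts went from 0 to at least 10 FPKM between libraries of the same group. FPKM of a library summed to between 322621 and 355591. Values are given in the order of replicates 1, 2 and 3. Cnn3 itself had siNC values of 62.8, 61.4 and 62.8 FPKM, against 19.04, 39.2 and 25.6 in siCNN3, without overlap. Its log2 difference was -1.19 (SE 0.242, adjusted p = 0.0669 by limma), so Cnn3 was not called, except when siCNN3 replicate 2 was left out (adjusted p = 0.0475 by limma).

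Schlafen mRNAs were low in siNC, and their values were higher in siCNN3. The 7 members together summed to 5.02, 16.7 and 7.17 FPKM in siNC and to 111.7, 99.98 and 27.1 FPKM in siCNN3 replicates 1, 2 and 3. For 6 of the 7, every siCNN3 library was above every siNC library, an arrangement found for 13.8% of all genes tested. Slfn2 and Slfn4, 2 of 7 members, were called higher and none lower, while 1.73% of all tested genes were called higher and 0.336% lower. At an unadjusted p below 0.05 all 7 were higher, as were 9.94% of all genes. Log2 differences of the members ran from 0.77 to 3.27 with a median of 1.54, or 1.84 without Slfn1, which was listed at 0 throughout siNC, beside a median of 0.028 over all tested genes. These sizes depend on the pseudocount, since with 0.1 in place of 1 the differences ran from 1.98 for Slfn3 to 4.77 for Slfn4, with Slfn5 at 2.03, Slfn1 at 3.31 and Slfn8 at 2.66, and Slfn2 and Slfn4 were again the called members. All 7 members passed the filter on low values, but Slfn1, Slfn4 and Slfn5 had an siNC mean under 0.5 FPKM and passed only through siCNN3, so these counts are descriptions and not support. In bulk RNA, fewer cells expressing a gene and less RNA per cell cannot be told apart.

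**Figure D1:**
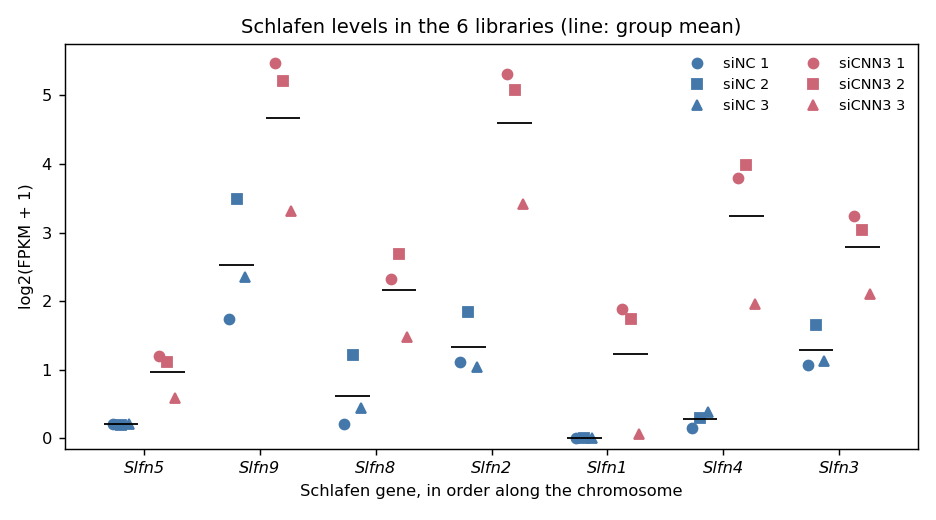
Levels on log2(FPKM + 1) of each of the 7 Schlafen genes, in order along the chromosome, with siNC libraries in blue, siCNN3 libraries in red, a symbol for each replicate and a line at each group's mean. The siCNN3 libraries lie above the siNC libraries for 6 of 7 genes, and siCNN3 replicate 3 is the lowest siCNN3 library for 7 of 7.

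Libraries of a group differed widely. In siCNN3, replicate 3 was lowest for 7 of 7 members, and in siNC replicate 2 was highest for 4 of 7. The share of all tested genes with either pattern was not counted, so neither is read as a trait of the family. Without siCNN3 replicate 3, all 7 members were called higher (adjusted p from 0.00073 for Slfn4 to 0.0368 for Slfn9, limma), as were 3.83% of all genes. Leaving out any one of the other 5 libraries left 0 of 7 called, and the lowest adjusted p of a member was then 0.0501, for Slfn2 without siNC replicate 2. Neither call therefore held with each library left out in turn.

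The short member Slfn2, which keeps T cells quiescent and shields tRNAs from cleavage in stressed T cells, had the largest difference of the family on log2(FPKM + 1), while Slfn4 came first with a pseudocount of 0.1 and by the ratio of mean FPKM. It had siNC values of 1.17, 2.59 and 1.06 FPKM, against 38.9, 32.9 and 9.63 in siCNN3. The lowest siCNN3 library was still above the highest siNC library. Mean levels were 1.60 ± 0.851 FPKM in siNC and 27.2 ± 15.5 in siCNN3 (SD, n = 3 each), 16.9 times as high. The log2 difference was 3.27 (SE 0.511, adjusted p = 0.0321 by limma), and the two-sided exact permutation p was 0.1, the smallest that 3 against 3 allow. Of its 50-base stretches, 4.27% were also found in Slfn4.

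Slfn1, the other short member, which slows growth of T cells when made in excess, was listed at 0 FPKM in all 3 siNC libraries. In siCNN3 it was at 2.71, 2.34 and 0.0412 FPKM. Replicate 3 was thus close to the siNC libraries, and no fold is given against a group at 0. The difference on log2(FPKM + 1) was 1.23 (SE 0.469, adjusted p = 0.267 by limma), and Slfn1 was not called.

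Among the intermediate members, Slfn4 is best known from monocytes and macrophages, where it is expressed during inflammation. It had siNC values of 0.108, 0.230 and 0.312 FPKM, against 12.8, 14.8 and 2.89 in siCNN3. The groups were far apart, although replicate 3 had less than the other siCNN3 libraries. The siNC mean was 0.217 ± 0.103 FPKM and the siCNN3 mean 10.2 ± 6.39 (SD, n = 3 each), a ratio of 46.9 that rests on siNC values near 0. The log2 difference was 2.96 (SE 0.512, adjusted p = 0.0430 by limma) and the two-sided exact permutation p was 0.1.

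Slfn3, studied in T cells and in the differentiation of gut epithelium, had higher siNC levels than Slfn4 and a smaller difference. It had siNC values of 1.09, 2.14 and 1.19 FPKM, against 8.50, 7.24 and 3.29 in siCNN3. The groups did not overlap, the mean being 1.47 ± 0.577 FPKM in siNC and 6.34 ± 2.72 in siCNN3 (SD, n = 3 each). The log2 difference of 1.51 (SE 0.331) missed the threshold (adjusted p = 0.0799 by limma). Slfn3 and Slfn4 share sequence, with 21.8% to 23.7% of the 50-base stretches of Slfn3 transcripts and 6.40% to 12.4% of those of Slfn4 found in another gene, mostly each other, so the division of reads between them is uncertain.

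The long member Slfn5, whose human counterpart acts in the nucleus on viral and cellular transcription, had the lowest siCNN3 mean of the family. It had siNC values of 0.157, 0.146 and 0.154 FPKM, against 1.31, 1.17 and 0.508 in siCNN3. The siNC libraries hardly differed from each other, and the lowest siCNN3 library was above all of them. The log2 difference was 0.77 (SE 0.204, adjusted p = 0.125 by limma), and Slfn5 was not called. Its transcript shared 11.8% of its 50-base stretches with other genes, 7.88% with Slfn5os, which runs over it on the other strand, and whether the libraries kept strand is not given, so reads of the overlap cannot be told apart.

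Slfn9 had the highest mean FPKM of the members in both groups, although Slfn2 was above it in siCNN3 replicate 3. With Slfn8 it belongs to the long rodent members nearest to human SLFN11 and SLFN13, which act on stalled replication forks and on tRNA. Slfn9 had siNC values of 2.33, 10.3 and 4.09 FPKM, against 43.5, 36.0 and 8.98 in siCNN3. It was the 1 member whose groups overlapped, since siNC replicate 2 was above siCNN3 replicate 3. The log2 difference was 2.14 (SE 0.658, adjusted p = 0.174 by limma, two-sided exact permutation p = 0.2). The means were 5.56 ± 4.16 FPKM and 29.5 ± 18.15 (SD, n = 3 each), a ratio of 5.31.

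Slfn8 had siNC values of 0.162, 1.33 and 0.355 FPKM, against 4.005, 5.46 and 1.78 in siCNN3. The groups came close, at siNC replicate 2 and siCNN3 replicate 3, without overlapping. The log2 difference was 1.54 (SE 0.384, adjusted p = 0.107 by limma), and Slfn8 was not called. Between 15.4% and 18.4% of the 50-base stretches of Slfn8 transcripts and between 11.9% and 21.4% of those of Slfn9 were found in another gene, mainly the pseudogene Slfn10-ps, so reads of these genes may have been split.

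**Figure D2:**
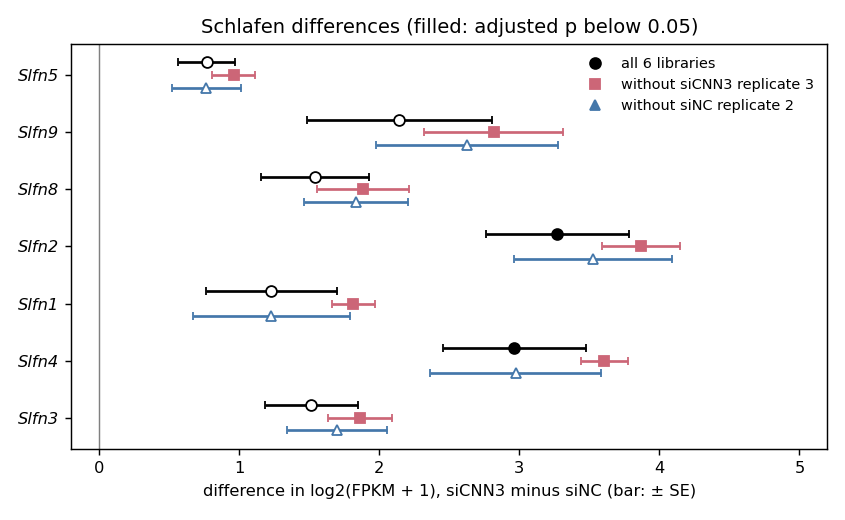
Differences (siCNN3 minus siNC) of the 7 Schlafen genes on log2(FPKM + 1), with limma standard errors as bars, from all 6 libraries, without siCNN3 replicate 3 and without siNC replicate 2, where filled symbols have an adjusted p below 0.05. From all libraries they run from 0.77 for Slfn5 to 3.27 for Slfn2 with 2 filled, all 7 are filled without siCNN3 replicate 3, and 0 are filled without siNC replicate 2.

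Ordered by mean FPKM, the members in siNC ran Slfn9, Slfn2, Slfn3, Slfn8, Slfn4, Slfn5 and Slfn1. Ranges of neighbours in that order overlapped, except those of Slfn5 and Slfn1. In siCNN3 the order was Slfn9, Slfn2, Slfn4, Slfn3, Slfn8, Slfn1 and Slfn5, with overlapping ranges for every pair of neighbours. Slfn4 stood behind Slfn8 in siNC and ahead of Slfn3 in siCNN3.

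The make-up of the summed Schlafen FPKM also differed. Slfn9 made up 46.5%, 61.5% and 57.0% in siNC and 38.9%, 36.0% and 33.1% in siCNN3. Slfn2 made up 23.2%, 15.5% and 14.8% in siNC and 34.8%, 32.9% and 35.5% in siCNN3, and Slfn4 2.15%, 1.38% and 4.36% against 11.5%, 14.8% and 10.7%. Slfn9 thus had the smaller share in every siCNN3 library, and Slfn2 and Slfn4 the larger. Slfn3 took 21.7%, 12.8% and 16.7% in siNC against 7.61%, 7.25% and 12.1% in siCNN3. Slfn1 took 0% in each siNC library against 2.43%, 2.34% and 0.152% in siCNN3. For each of these 5 the groups did not overlap (two-sided exact permutation p = 0.1, adjusted over the 7 shares 0.14), and none could pass the threshold in this design. The share of siCNN3 replicate 3 was close to those of the other siCNN3 libraries for Slfn2 and Slfn4, although its summed level was lower. The shares of Slfn5 (exact permutation p = 0.6) and Slfn8 (exact permutation p = 1) overlapped between groups.

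Which transcript of a gene carried its FPKM was less steady than the sum. Slfn9 has 3 listed transcripts, and ENSMUST00000092840 was at 12.6 FPKM in siCNN3 replicate 1 and listed at 0 in siCNN3 replicates 2 and 3. ENSMUST00000000208 carried 58.9%, 5.55% and 13.7% of the FPKM of Slfn4 in the siCNN3 libraries. ENSMUST00000038141 carried 73.7%, 25.3% and 23.4% of that of Slfn8. Replicates of the same group thus differed widely in these divisions, and no transcript of these genes is compared between groups. Slfn3 had a steadier division, with ENSMUST00000214041 at 69.9%, 57.8% and 61.9% of its FPKM in siNC and at 82.6%, 77.1% and 74.0% in siCNN3, without overlap. The siNC shares rest on low values of that transcript (0.762, 1.24 and 0.740 FPKM), and the difference in shares was not tested. Slfn1, Slfn2 and Slfn5 have 1 listed transcript each.

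**Figure D3:**
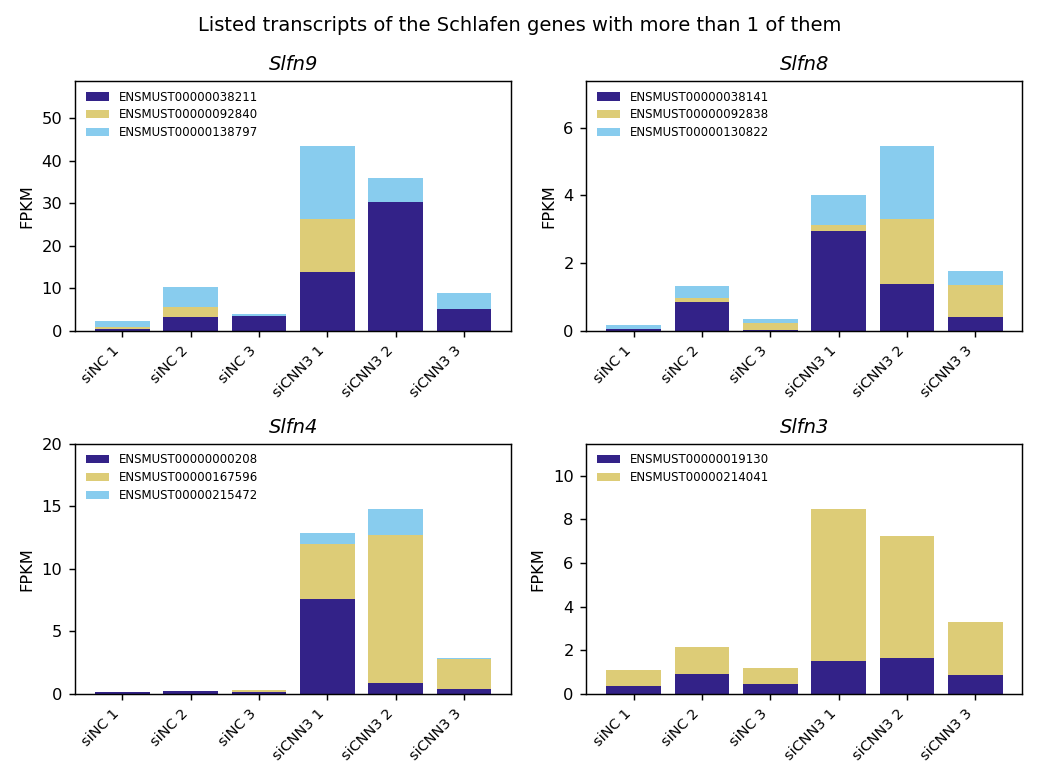
FPKM of each listed transcript of Slfn9, Slfn8, Slfn4 and Slfn3, stacked to the gene's sum, in each of the 6 libraries, with a separate FPKM axis for each gene. The division between transcripts differs widely among siCNN3 replicates for Slfn4, Slfn8 and Slfn9, while ENSMUST00000214041 is the larger part of Slfn3 in each library.

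Of the genes that make and carry the interferon signal, 24 of 32 were listed and 23 tested. 3 were called higher, Irf5 and Irf7 among them, none was called lower, 17 had a difference above 0, and the median was 0.15. Over all tested genes 1.73% were called higher and 0.336% lower, with a median of 0.028. Irf7, which drives interferon genes, had siNC values of 0.796, 11.8 and 5.33 FPKM, against 130.8, 121.5 and 76.6 in siCNN3 (log2 difference 4.36, adjusted p = 0.0305 by limma). For Irf7, siNC replicate 2 was the highest siNC library and siCNN3 replicate 3 the lowest siCNN3 library. Irf5, a related factor of innate immune signalling, had siNC values of 1.14, 1.51 and 2.16 FPKM, against 8.86, 8.32 and 5.69 in siCNN3 (log2 difference 1.73, adjusted p = 0.0170 by limma). The call of Irf5 was lost in 4 of the 6 fits with a library left out and kept without siCNN3 replicate 3 or siNC replicate 2, while that of Irf7 was lost in 3 and kept also without siNC replicate 1.

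The ligands were low. Ifnb1, which encodes interferon beta, had siNC values of 0, 0.225 and 0 FPKM, against 6.60, 7.78 and 1.01 in siCNN3, and it was not called (adjusted p = 0.0976 by limma). Ifna4, an interferon alpha gene, was listed at 0 in every siNC library and at 2.08, 2.52 and 0.137 FPKM in siCNN3 (adjusted p = 0.220 by limma). For both, siCNN3 replicate 3 was by far the lowest siCNN3 library. Ifnar1 and Ifnar2, the receptor chains for these ligands, had log2 differences of -0.31 and 0.15 and were not called. Stat2 and Irf9, which act together downstream of these receptors, had differences of 2.05 (adjusted p = 0.0910 by limma) and 1.55 (adjusted p = 0.220 by limma), and Usp18, a brake on the receptor, had 4.75 (adjusted p = 0.0525 by limma). With siCNN3 replicate 3 left out, Ifnb1 (log2 difference 2.93, adjusted p = 0.0014), Ifna4 (adjusted p = 0.0049) and Usp18 (adjusted p = 0.0466) were called higher by limma. That fit called 3.83% of all genes higher. With siNC replicate 2 left out, Usp18 (adjusted p = 0.0148), Stat2 (adjusted p = 0.0371) and Irf1 (adjusted p = 0.0246) were called higher by limma. Irf1, a transcription factor of the list, was highest in siCNN3 replicate 3 (40.6, 39.8 and 62.9 FPKM in siCNN3). Ifnb1, Ifna4, Usp18, Stat2 and Irf1 were called in no other fit with a library left out. The part of these genes in the Schlafen levels was not tested.

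Genes of the processes in which Schlafen proteins act were looked up next. With 1.73% of all tested genes called higher and 0.336% lower, lists this short would hold few or no calls at the background rate, so nothing is read from a count of 0. At an unadjusted p below 0.05 by limma, 9.94% of all genes were higher, so nothing is read from 1 such gene in a list either. None of 12 tested genes of tRNA cleavage, splicing and repair was called by limma (1 at an unadjusted p below 0.05), and a test with the spread of each gene estimated alone called 0 of all 11593 genes after adjustment. The largest differences there were those of Tsen15 (0.58), Nsun2 (0.50), Trnt1 (0.39) and Elac2 (-0.29), and the median was 0.14. None of 16 tested cell cycle genes was called by limma (1 at an unadjusted p below 0.05). That gene was Ccnd2, which encodes cyclin D2, at 10.9, 10.2 and 12.02 FPKM in siNC and 27.5, 29.6 and 16.8 FPKM in siCNN3 (log2 difference 1.05, adjusted p = 0.0726 by limma). Ccnd2 was lowest among siCNN3 libraries in replicate 3. Without that library it was called higher, as were 3.83% of all genes. None of 8 tested genes of replication linked to SLFN11 was called by limma (1 at an unadjusted p below 0.05), with differences of 0.58 for Mcm3, 0.55 for Cul4a and -0.37 for Ddb1.

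Genes around the cluster were examined next. Of 57 annotated genes that start within 500 kb of the cluster, 13 were listed and tested, 3 were called higher, 10 had a difference above 0 and the median was 0.22, compared with 1.73% called higher and a median of 0.028 over all tested genes. On the side of Slfn5, the listed gene next to the cluster was Nle1, which serves ribosome assembly (log2 difference 0.70, SE 0.349, adjusted p = 0.381 by limma). The called genes, Ccl5, Ccl4 and Heatr9, lie on the side of Slfn3. Ccl5, a chemokine that draws T cells and monocytes, had siNC values of 4.67, 11.03 and 12.3 FPKM, against 460.9, 454.02 and 327.7 in siCNN3. Its log2 difference of 5.41 (adjusted p = 0.00354 by limma) was called with any 1 library left out. The call of Ccl4 (3.13, adjusted p = 0.0099) was lost without siNC replicate 3, and that of Heatr9 (1.55, adjusted p = 0.0099) without siCNN3 replicate 1, siCNN3 replicate 2 or siNC replicate 3 (limma).

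**Figure D4:**
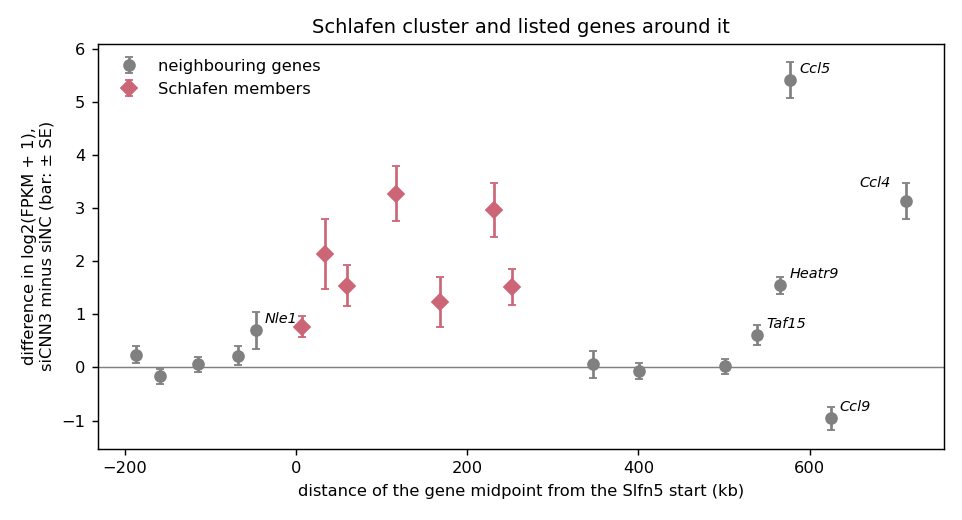
Difference (siCNN3 minus siNC, log2(FPKM + 1), bars for the limma standard error) of the 7 Schlafen genes (diamonds) and of the 13 tested genes that start within 500 kb (circles), against the distance of the gene's midpoint from the Slfn5 start in kb. All members lie above 0, Nle1, the nearest listed gene on the side of Slfn5, is at 0.70, and Ccl5 is highest at 5.41.

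Schlafen genes are known mainly from immune cells, so markers of such cells were looked up. None of 5 markers of T cells, 3 of B cells, 3 of granulocytes and 3 of endothelium was listed. Of 7 macrophage and monocyte markers only Cd68, Lyz2 and Cd14 were listed, while Ptprc, Adgre1, Csf1r and Itgam were not. The listed 3 summed to between 20.08 and 27.1 FPKM in siNC and between 16.3 and 19.2 FPKM in siCNN3, and none was called. All 8 myotube markers were listed, and of the 7 tested Acta1 (log2 difference -2.12), Myh3 (-1.38) and Tnnt3 (-1.50) were called lower, with a median of -1.03, compared with 0.336% called lower and a median of 0.028 over all tested genes. The call of Acta1 held with any 1 library left out, while those of Myh3 and Tnnt3 were lost without siCNN3 replicate 1, siCNN3 replicate 2 or siNC replicate 3 (adjusted p from 0.0747 to 0.112 by limma). Acta1, the actin of skeletal muscle, had siNC values of 24.6, 33.8 and 26.9 FPKM, against 5.37, 5.35 and 6.43 in siCNN3. All 8 markers summed to 150.9 to 170.2 FPKM in siNC and 93.9 to 114.6 in siCNN3, most of it Des, which encodes desmin and was not called (log2 difference -0.36). The part of these markers in the Schlafen levels was not tested.

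Genes with a profile most like the mean of the family were looked for on log2(FPKM + 1) less the siNC mean. The measure was the root mean square difference from the mean of the 7 members over the 6 libraries. The mean of the members ran -0.25, 0.35 and -0.10 in siNC and 2.43, 2.37 and 0.95 in siCNN3. Oas1c, of the family of oligoadenylate synthetases that sense viral RNA, was nearest (0.0363 log2 units), at 0, 0.482 and 0.125 FPKM in siNC and 5.26, 5.46 and 1.33 FPKM in siCNN3. Znfx1, a helicase that senses viral RNA, came next (0.122), at 10.04, 14.3 and 10.7 FPKM in siNC and 67.3, 54.3 and 26.2 FPKM in siCNN3. Gm12185 (0.126), Cngb3 (0.176) and Atf5 (0.185) followed, the last a factor of the stress response. Of these 5, only Znfx1 was called (log2 difference 1.90, adjusted p = 0.0492 by limma), and its call was lost without any 1 library other than siCNN3 replicate 3. All 5 had their lowest siCNN3 value in replicate 3 and their highest siNC value in replicate 2, as the choice by profile favours. They are near the mean only, since none of these 5 was the gene nearest to any single member.

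**Figure D5:**
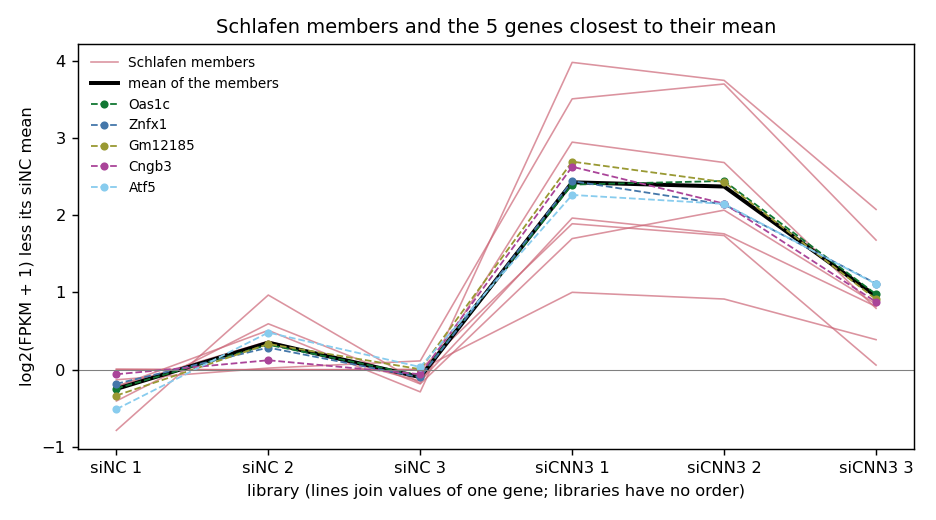
Profiles over the 6 libraries, as log2(FPKM + 1) less the siNC mean, of the 7 Schlafen genes (thin lines), of their mean (thick line) and of the 5 genes most like that mean (dashed lines); lines join the values of a gene and libraries have no order. Oas1c follows the mean of the members to within 0.0363 log2 units (root mean square), and the lowest siCNN3 value of each line is in replicate 3.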

How the data were processed

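mRNA of 3 siNC and 3 siCNN3 libraries of C2C12 cells was measured by sequencing. The authors deposited FPKM for 24023 Ensembl transcripts, already scaled for length and number of mapped fragments. The submitters' processing notes name Bowtie 0.12.2 and the builds mm8 and mm10. The program that made the FPKM, its annotation, strandedness and read numbers are not given in the sources used here, so depth is unknown, no counting error is given and no count test was run.

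Without their version, 23949 identifiers were found in the GENCODE annotation of GRCm38 (the other 74 held 0.159% to 0.22% of a library's FPKM), and FPKM were summed by gene symbol. A filter at a mean of 0.5 FPKM and a pseudocount of 1 were used, followed by limma 3.58.1 in R 4.3.3 (mean-variance trend, Benjamini-Hochberg adjustment over 11593 genes, threshold 0.05). Single values were compared with two-sided exact permutation tests. The fit was tested on simulated data. Shared 50-base stretches were counted over all annotated transcripts, and coding sequences were aligned with biopython 1.88. Figures were drawn with matplotlib 3.10.9.

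The members and all gene lists (interferon signalling, tRNA cleavage and repair, cell cycle, SLFN11-linked replication, cell type markers, genes starting within 500 kb) were chosen with earlier results of these data known. Named genes are the listed Schlafen genes and transcripts, Cnn3, list members that were called or otherwise up to 4 with the largest change, the neighbours next to the cluster or called, and the 5 genes most like the mean of the family. Genes named beyond this rule (Ifnb1, Ifna4, Ifnar1, Ifnar2, Stat2, Irf1, Irf9 and Usp18, and the myotube and macrophage markers) were chosen for their role or as list members after values were seen. Some genes that meet the rule are not reported here.

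Alternatives were a pseudocount of 0.1, a filter at 5 FPKM or none, scaling by median of ratios or by quantiles, a replicate block, each library left out, the most abundant transcript of a gene, limma without a trend, and a Student's test of each gene.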

Additional observations from a re-analysis of the deposited data

How the results depend on the processing

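All 101 differences of the 7 members over 15 alternative settings were above 0. The filter at 5 FPKM left no value for Slfn1, Slfn3, Slfn5 and Slfn8. Slfn2 lost its call with the most abundant transcript (adjusted p = 0.0605 by limma, although its own values are unchanged, since it has 1 listed transcript), and Slfn4 with the most abundant transcript (0.0878) and the replicate block (0.0796). Genes called higher numbered 200 in the reported fit, 62 with the replicate block, 100 with the most abundant transcript, 0 with a Student's test of each gene (1084 at an unadjusted p below 0.05), and 16 to 444 with a library left out. Genes called lower numbered 39, and 63 with median-of-ratios scaling, 93 with quantile normalization, 6 with the replicate block, 22 with the most abundant transcript, 0 with the Student's test (716 unadjusted), and 4 to 161 with a library left out. Of all calls 83.7% were higher, 68.2% after quantile normalization and 77.6% after median-of-ratios scaling, and no scaling moved the median of all genes by over 0.1 log2 units. Members called numbered 2, and 1 with the replicate block, 0 with the most abundant transcript, 0 with the Student's test (5 unadjusted) and 0 to 7 with a library left out. Interferon signalling genes called numbered 3, and 0 with the replicate block, 1 with the most abundant transcript, 0 with the Student's test and 0 to 6 with a library left out. Cell cycle calls ran from 0 to 1 (Ccnd2) with a library left out, quantile normalization called 1 gene of SLFN11-linked replication (Ddb1, lower), and neighbours called numbered 0 with the Student's test and 1 to 4 with a library left out. The cause of these shifts was not tested. Samples with the same replicate number deviated from their group means with correlations across genes of -0.278, 0.314 and -0.025. With 3 libraries a group these values cannot show whether samples were paired. The sample titles state no pairing, so the block is given only as an alternative. Depth is unknown, and there are 3 libraries a group.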
